A study of Homo sapiens with 66 samples.

Results

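The genes described here are 10 regulators of mTORC1, the kinase complex that couples cell growth to the supply of amino acids. They were chosen by name, and all 10 were found among the 20167 genes of the count table. They are EIF4EBP1, DEPTOR, RRAGC, RRAGD, FLCN, FNIP1, SESN3, MTOR, RPTOR and TSC1. RNA-seq was carried out on 66 libraries of 2 human multiple myeloma cell lines treated with inhibitors of prolyl-tRNA synthetase (ProRS), the enzyme that loads proline onto its tRNA. AMO1 cells gave 12 groups and L363-CFZr cells, which the labels describe as resistant to carfilzomib (CFZ), gave 10, each with 3 replicates. Both lines received NCP26, NCP22, halofuginone (HFG) or halofuginol at 1 µM, or DMSO as the solvent control, and RNA was taken after 6 h and 24 h. AMO1 cells alone also received CFZ, a proteasome inhibitor used against myeloma. NCP26 carries a piperidinyl group where NCP22 carries a cyclohexyl group, and halofuginol is an analog of HFG. Because 1 line of each kind was used, cell line and resistance cannot be told apart.

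In cells with enough amino acids, the Rag GTPases on the lysosome recruit mTORC1, which is built around the kinase MTOR and the scaffold RPTOR, and which then phosphorylates the translation repressor encoded by EIF4EBP1. FLCN with FNIP1 acts on the RRAGC and RRAGD proteins, SESN3 and TSC1 restrain the pathway, and DEPTOR binds and inhibits MTOR. Myeloma cells are malignant plasma cells that secrete large amounts of immunoglobulin, and some of them are known for high DEPTOR. The transcription factors TFEB and TFE3, which mTORC1 holds in the cytoplasm, raise the transcription of lysosomal genes and of RRAGC, RRAGD, FLCN and FNIP2 when the pathway is off.

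Total counts ran from 1666325 to 5761682 in AMO1 libraries and from 2487872 to 6596543 in L363-CFZr libraries. Replicate 1 of AMO1 NCP26 at 6 h had the most genes detected of all libraries, 15581, against 13577 and 13636 in the other replicates of its group. The plasma cell markers were expressed in both lines, with SDC1 at a median of 2260 CPM (counts scaled to the size of each library) in AMO1 and 594 in L363-CFZr and MZB1 at 496 and 661. Markers of T cells, B cells, monocytes, fibroblasts, epithelium and red cells did not exceed 9.64 CPM, the highest value of COL1A1. Replicate 2 of L363-CFZr DMSO at 24 h and replicate 2 of AMO1 CFZ at 24 h stood apart, with a mean correlation of 0.921 and 0.930 to the other replicates, which correlated with each other at 0.990 and 0.982. Most results of the members that rest on them are given with and without them. Changes and counts of the gene lists are given with them only. Sample numbers from 1 to 22 recur 3 times, which makes 3 sets of libraries. Each group lies within 1 set, except AMO1 CFZ at 24 h and L363-CFZr NCP22 at 6 h. In AMO1 at 24 h, 14 of the 15 treated libraries were in another set than DMSO, and so were all HFG and halofuginol libraries of L363-CFZr at 6 h. The 6 h changes were related to transcript GC content. Across genes, the correlation in AMO1 was −0.37 (NCP26), −0.32 (HFG), −0.51 (NCP22) and −0.47 (halofuginol), and in L363-CFZr it was −0.37, −0.57, −0.01 and −0.72 in the same order. The members range from 37.1% GC in SESN3 to 62.9% in EIF4EBP1.

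The promoters of RRAGC, FLCN and FNIP1 are shown because these genes of the Rag branch changed with NCP26 or HFG and because CACGTG, the core of the motif bound by TFEB, TFE3 and other E-box factors, can be looked for in them. Each sequence holds the 250 bases before the RefSeq start on GRCh38.p14, 5′ to 3′ on the gene's strand, with CACGTG in capitals.
RRAGC, chr1:38859773-38860022, minus strand: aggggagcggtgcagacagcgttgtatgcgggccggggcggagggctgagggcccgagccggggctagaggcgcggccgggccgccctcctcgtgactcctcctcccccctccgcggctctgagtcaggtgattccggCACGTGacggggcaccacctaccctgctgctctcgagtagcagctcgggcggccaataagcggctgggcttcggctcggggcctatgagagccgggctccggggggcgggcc
FLCN, chr17:17237169-17237418, minus strand: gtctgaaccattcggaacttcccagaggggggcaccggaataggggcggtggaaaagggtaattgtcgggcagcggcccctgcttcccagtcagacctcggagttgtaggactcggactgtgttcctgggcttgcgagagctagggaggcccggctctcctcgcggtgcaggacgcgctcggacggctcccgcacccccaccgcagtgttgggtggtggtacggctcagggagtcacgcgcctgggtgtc
FNIP1, chr5:131797018-131797267, minus strand: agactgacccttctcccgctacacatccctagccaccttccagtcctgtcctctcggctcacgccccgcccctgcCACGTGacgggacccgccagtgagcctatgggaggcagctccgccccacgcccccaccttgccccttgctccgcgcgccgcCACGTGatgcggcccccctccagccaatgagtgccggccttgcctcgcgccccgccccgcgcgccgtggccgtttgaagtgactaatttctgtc
RRAGC held 1 CACGTG, 112 bases before the start, FNIP1 held 2, at 175 and 94 bases, and FLCN held none. CACGTG, which reads the same on both strands, was found in 6.34% of 35116 RefSeq promoters cut to the same length. The longer TCACGTGA, which contains CACGTG, was found in 0.854%, TGATGNAA, a composite element read by ATF4, in 3.14% and GTAAACA, read by FOXO factors, in 2.98%, each searched on both strands. Of the 7 members whose windows were searched, RRAGC and FNIP1 alone held CACGTG, and the other 3 motifs were found in none of the 7. The windows of EIF4EBP1, DEPTOR and RRAGD were not searched. A match describes these letters only.

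Treated libraries were set against the DMSO libraries of the same line and time by edgeR's quasi-likelihood test on the counts, with Benjamini-Hochberg adjustment over all tested genes, and a gene was called at an adjusted p under 0.05. Values are CPM scaled to the TMM-adjusted library size, changes are log2 fold changes, and errors of changes are standard errors (SE). Treatments of one line and time share their 3 DMSO libraries. The methods of the study speak of biological triplicates for its experiments in general, without saying how the RNA-seq replicates were grown, and p-values measure the spread between these samples. In bulk RNA, fewer cells with a transcript and less of it per cell cannot be told apart. All 10 members passed the filter on low counts in every comparison, with counts per library from 21 (FNIP1) to 1588 (EIF4EBP1).

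Against DMSO, the 10 members gave 45 calls in 180 tests, 40 higher and 5 lower. SESN3 was called in 8 of 18 comparisons, EIF4EBP1 and RRAGC in 7, DEPTOR in 5, RRAGD, FLCN and FNIP1 in 4, TSC1 in 3, MTOR in 2 and RPTOR in 1. Of the 45 calls, 24 held under each of the 7 other processing settings and with each library left out. In AMO1 at 6 h, NCP26 raised 3 members (37.3% of all tested genes were called), HFG 5 (54.3%) and CFZ 4 with 1 lowered (26.9%). At 24 h, NCP26 raised 7 (60.7%), HFG raised 6 and lowered 1 (59%), and CFZ raised 3 and lowered 1 (27%). In L363-CFZr at 6 h, NCP26 raised 1 member (18.8%) and HFG raised 5 and lowered 1 (54.5%). At 24 h, NCP26 raised 2 (7.09%) and HFG 1 (1.17%). The share of members called was above that of all genes in 7 of these 10 comparisons, by at most 2.31 members (CFZ at 6 h), and below it in the other 3, so that the number of calls alone is close to the background. With NCP26 at 24 h in AMO1, where the 7 members called were all higher, 29.8% of all genes were higher and 30.9% lower. The median change of the members was 0.21 with NCP26 at 6 h in AMO1 (all genes −0.011), 0.25 with HFG (0.013), 0.24 with NCP26 at 24 h (0.007) and 0.44 with HFG (−0.002). With CFZ it was 0.24 at 6 h (−0.006) and 0.38 at 24 h (0.015). In L363-CFZr it was 0.14 with NCP26 (0.013) and 0.14 with HFG (−0.002) at 6 h. At 24 h it was 0.15 (−0.002) and −0.01 (−0.016) there. Between the DMSO groups of AMO1, 24 h against 6 h, it was 0.48 (−0.005). The members were chosen with earlier results of these data known, so that a shared direction is no independent result.

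**Figure D1:**
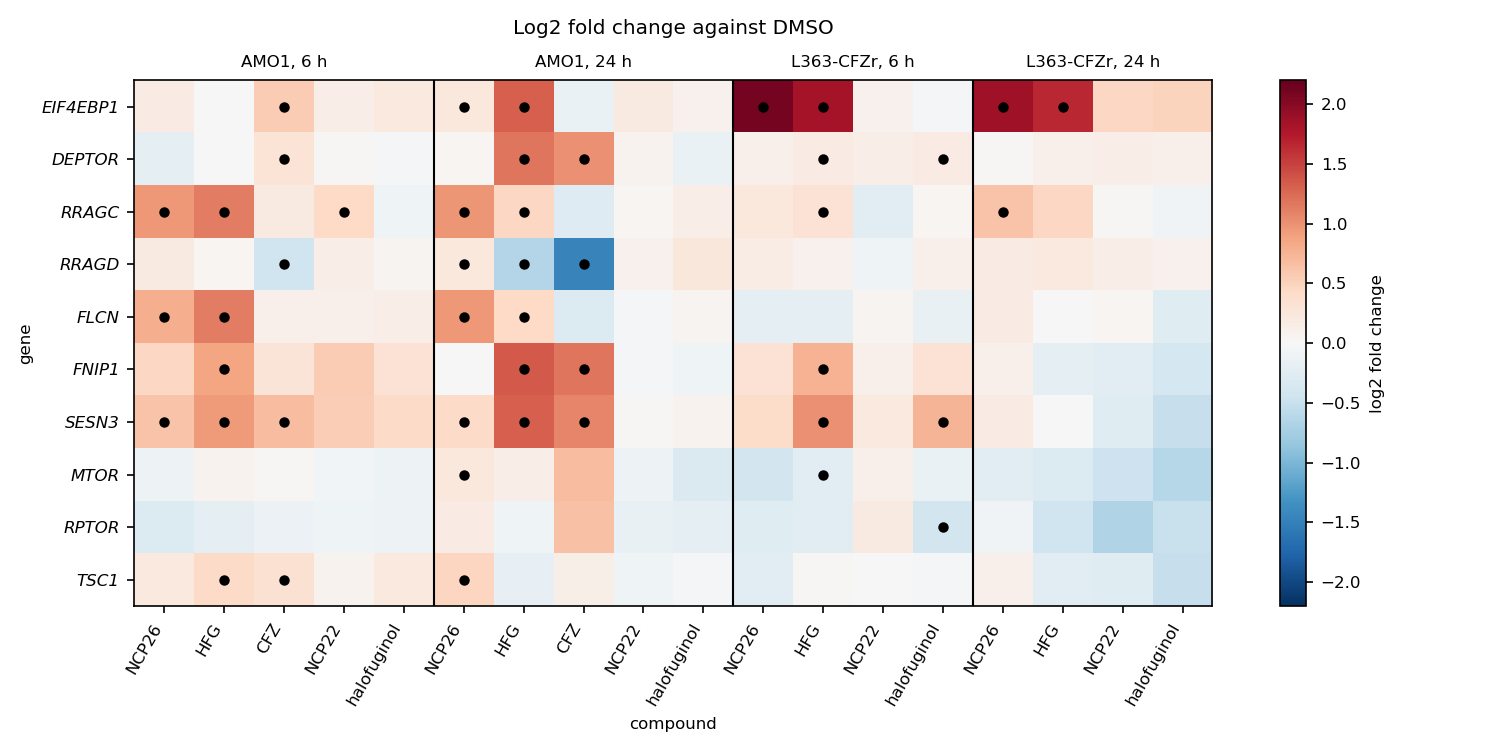
Log2 fold changes of the 10 members (down the side) against DMSO in 18 comparisons (along the bottom), as colours, with a dot on called changes. The heat map shows EIF4EBP1 highest in L363-CFZr with NCP26 and HFG, up to 2.11, and RRAGD lowest with CFZ at 24 h, at −1.47.

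RRAGC, the Rag GTPase that binds RRAGA or RRAGB (ENSG00000116954, GRCh38 chr1:38838198-38859772, minus strand), rose with NCP26 in AMO1 cells at both times. At 6 h it was measured at 28.4, 28.7 and 28 CPM with DMSO, 59.1, 53.3 and 52.3 with NCP26 and 59.8, 57.9 and 63.3 with HFG. The treated libraries all lay above the DMSO libraries, and those of both compounds overlapped each other. The change was 0.96 ± 0.12 with NCP26 (1.94-fold, adjusted p = 8.8e-05) and 1.13 ± 0.10 with HFG (adjusted p = 3.3e-07). At 24 h DMSO gave 41, 37.5 and 36.4 CPM, NCP26 69.1, 79.5 and 74.6 and HFG 51.2, 54.2 and 50.3. Here the 3 groups were separate, with NCP26 highest. The change was 0.97 ± 0.092 with NCP26 (adjusted p = 1.7e-10) and 0.45 ± 0.10 with HFG (adjusted p = 0.00087), the latter at adjusted p = 0.062 with a term for the set of libraries, which rests on the 1 CFZ library that shares the set of DMSO, replicate 1, set against replicates 2 and 3, of which replicate 2 stood apart. NCP22 raised RRAGC in AMO1 at 6 h, from the same DMSO values to 33.4, 40.9 and 40.0 CPM, by 0.44 ± 0.12 (adjusted p = 0.022), a call lost with an offset for GC content (adjusted p = 0.066), with DESeq2 (0.074) and without any 1 of 4 libraries, DMSO replicates 1 and 2 and NCP22 replicates 2 and 3 (0.067 to 0.093). In L363-CFZr cells the 6 h changes were smaller, by the test of the difference between lines given with the other interactions, and at 24 h the differences did not pass (−0.37 for NCP26, adjusted p = 0.21, and 0.01 for HFG, adjusted p = 0.98). There HFG at 6 h gave 55.4, 46.5 and 46.8 CPM against 46.6, 40.9 and 37.3, with 1 DMSO library inside the treated range, a change of 0.31 ± 0.11 (adjusted p = 0.023) that became 0.18 with the GC offset (adjusted p = 0.18) and 0.21 without DMSO replicate 3 (adjusted p = 0.14) or HFG replicate 1 (0.17). NCP26 at 24 h gave 44, 43.6 and 51.1 CPM against 30.6, 26.9 and 33, with no overlap, a change of 0.62 ± 0.15 (adjusted p = 0.045). The call was lost without any 1 of the libraries other than DMSO replicate 2 (adjusted p = 0.089 to 0.18), while without DMSO replicate 2, the library that stood apart, it was 0.54 (adjusted p = 0.0063). About 25.1% of the 31-mers of RRAGC recur in other genes. The gene that shares the most is absent from the count table, so that its reads and those of RRAGC may have been summed or lost there.

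FLCN, folliculin, which as part of a GTPase-activating complex acts on RRAGC and RRAGD (ENSG00000154803, chr17:17212212-17237188, minus strand), changed in AMO1 cells with NCP26 and HFG and passed the test in no L363-CFZr comparison with DMSO. At 6 h in AMO1 it was measured at 52.2, 57.0 and 53.8 CPM with DMSO, 86.9, 91.9 and 102 with NCP26 and 113, 120 and 112 with HFG. The 3 groups did not overlap. The change was 0.80 ± 0.11 with NCP26 (1.74-fold, adjusted p = 0.00015) and 1.12 ± 0.086 with HFG (2.17-fold, adjusted p = 4.6e-08). At 24 h it was 78.4, 83.8 and 73.3 CPM with DMSO, 157, 149 and 150 with NCP26 and 112, 108 and 100 with HFG. The order of the compounds was the opposite of that at 6 h, again without overlap. In the direct test of NCP26 against HFG, however, FLCN was called at 24 h and not at 6 h. The change was 0.95 ± 0.071 with NCP26 (adjusted p = 6.6e-13) and 0.44 ± 0.079 with HFG (adjusted p = 0.0001), the latter 0.11 with the set term (adjusted p = 0.68). The comparison of HFG with halofuginol, whose libraries share a set there, is given with the related compounds. FLCN in L363-CFZr at 6 h was 55.8, 57.2 and 59.0 CPM with DMSO, 53.7, 49.1 and 45.8 with NCP26 and 52.3, 48.1 and 47 with HFG. Every treated library lay below every DMSO library there, with a change of −0.19 ± 0.11 (adjusted p = 0.25) and −0.19 ± 0.094 (adjusted p = 0.09). With CFZ at 24 h in AMO1 it was 53.9, 74.3 and 59.8 CPM, a change of −0.30 (adjusted p = 0.16) that was −0.46 (adjusted p = 0.0011) without replicate 2, which stood apart. About 16.5% of the 31-mers of FLCN recur in other genes, of which the one sharing the most is absent from the table.

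**Figure D2:**
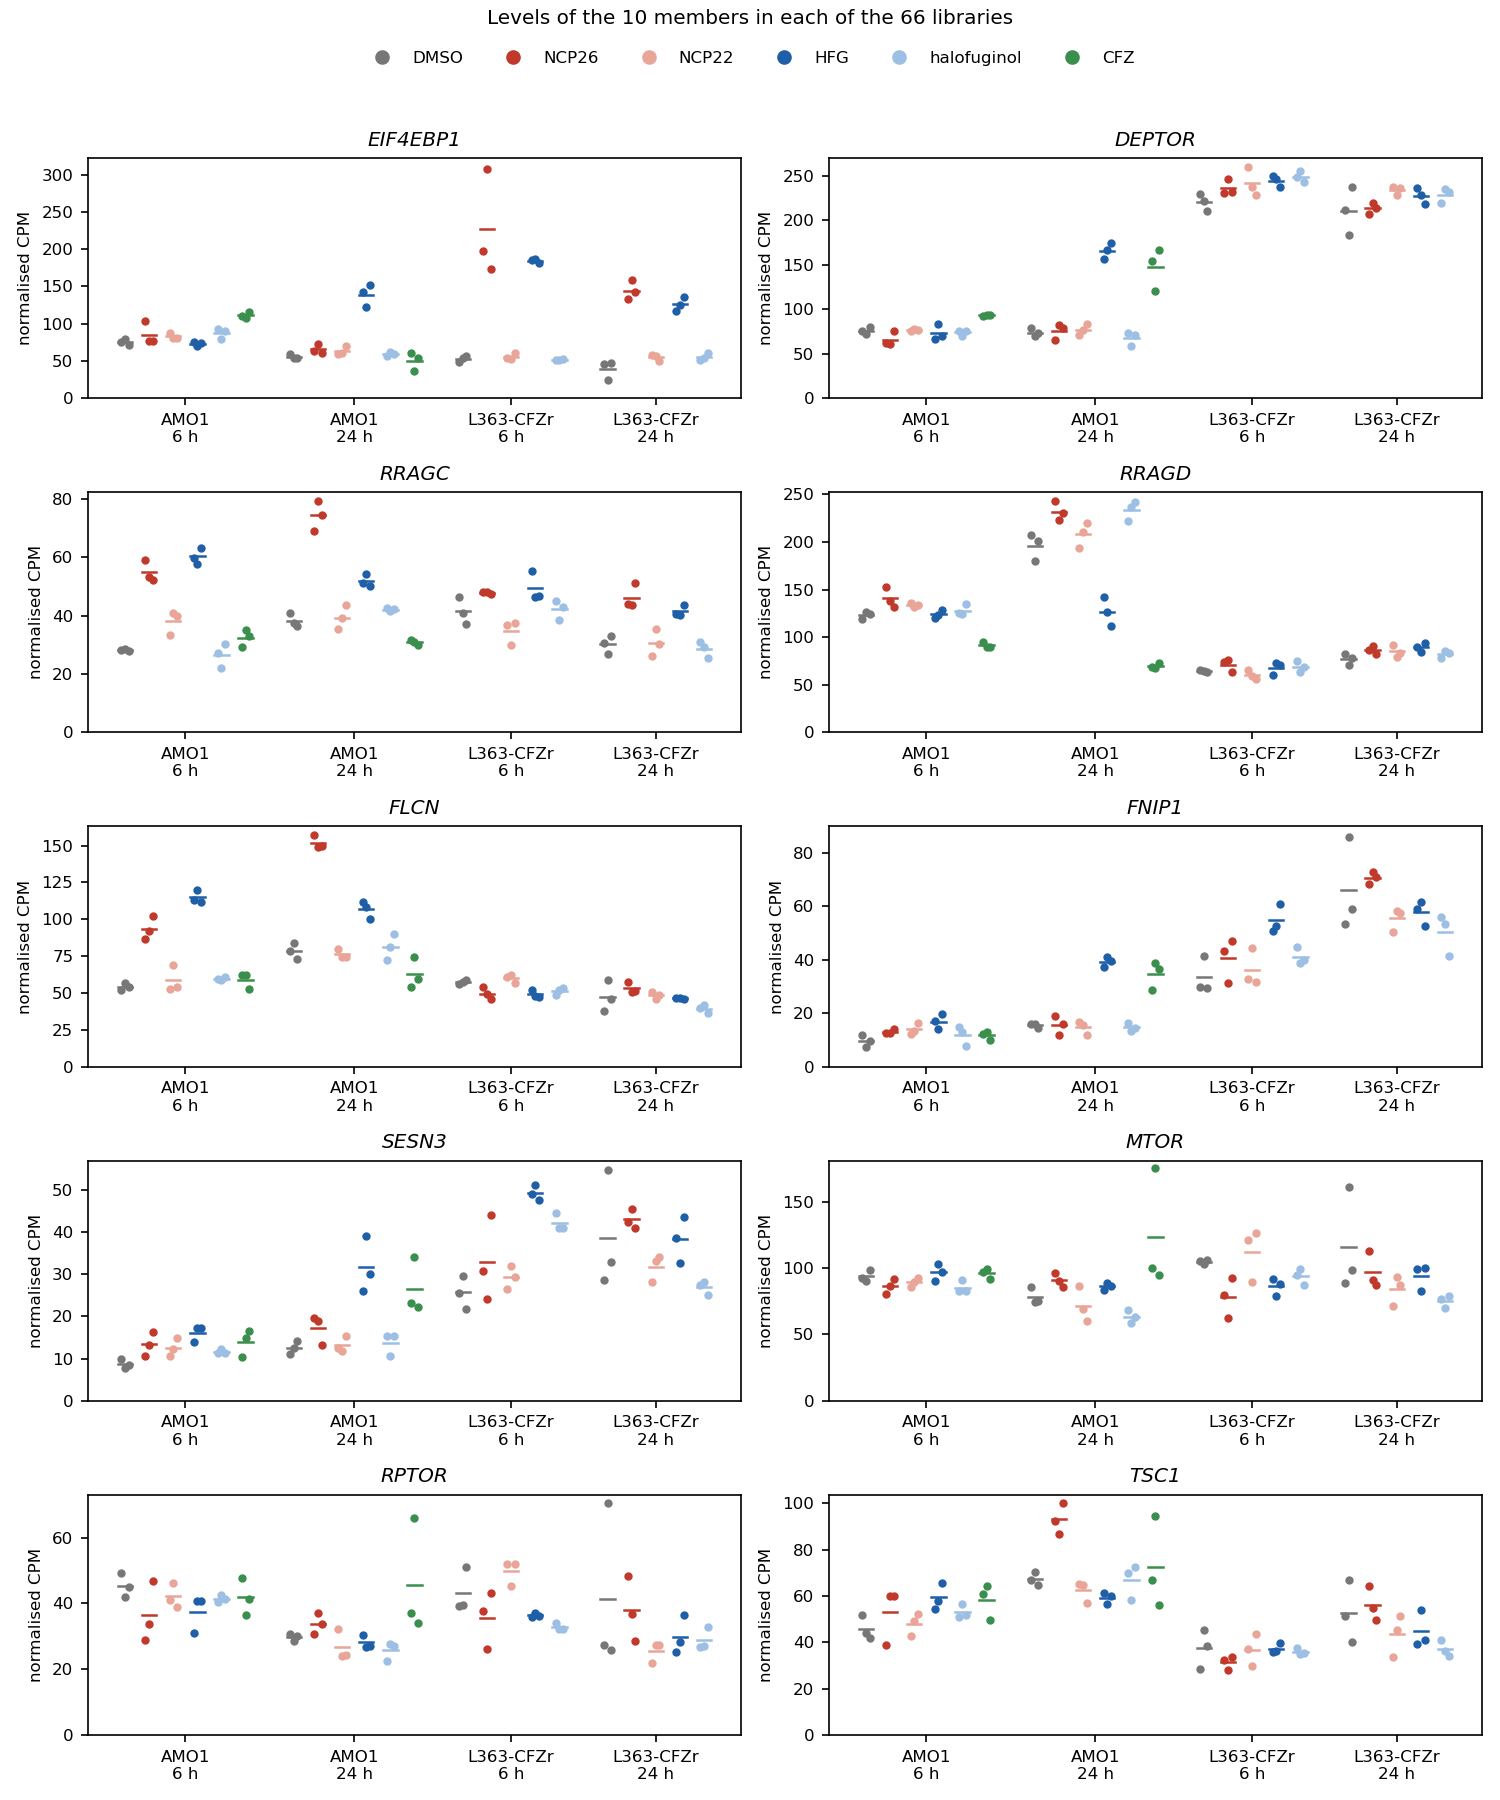
CPM of each member (vertical axis, linear from 0) in all 66 libraries, with one panel per gene, one point per library, a bar at each group's mean and lines and times along the horizontal axis. FLCN and RRAGC rise in AMO1 with NCP26 and HFG, while EIF4EBP1 reaches its highest value, 308 CPM, in an L363-CFZr library treated with NCP26.

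FNIP1, folliculin-interacting protein and partner of FLCN (ENSG00000217128, chr5:131641714-131797017, minus strand), was raised by HFG in both lines and by CFZ at 24 h. In AMO1 at 6 h it was at 11.9, 7.34 and 9.56 CPM with DMSO and at 17.2, 13.9 and 19.5 with HFG, a change of 0.87 ± 0.21 (adjusted p = 0.0027). The libraries of NCP26 (12.5, 12.6 and 14 CPM) and NCP22 (12.3, 13.5 and 16.4) also lay above every DMSO library, without a call, and overlapped HFG. FNIP1 has a low GC content (38.7%), and the 6 h changes were related to GC content. At 24 h DMSO gave 15.8, 16 and 14.6 CPM, HFG 37.1, 40.9 and 39.4, CFZ 28.7, 38.9 and 36.5 and NCP26 18.8, 11.7 and 15.8. HFG and CFZ lay clear of DMSO, and the NCP26 libraries fell on both sides of it. The change was 1.35 ± 0.13 with HFG (2.54-fold, adjusted p = 6.6e-08), 1.18 ± 0.17 with CFZ (adjusted p = 0.0016, and 1.08 with adjusted p = 1.6e-05 without CFZ replicate 2) and 0.00 ± 0.17 with NCP26 (adjusted p = 0.99, 95% interval −0.36 to 0.36). In L363-CFZr HFG raised it at 6 h from 29.9, 41.2 and 29.4 CPM to 50.8, 52.7 and 60.9, by 0.77 ± 0.12 (adjusted p = 1.3e-05). At 24 h there, HFG gave −0.19 (adjusted p = 0.61) and NCP26 0.12 (adjusted p = 0.76). Without DMSO replicate 2, at 85.9 CPM against 53.3 and 58.9 in the other replicates, HFG gave 0.04 (adjusted p = 0.82) and NCP26 0.34 (adjusted p = 0.02). FNIP1 shares 4.42% of its 31-mers with other genes, the most with ENSG00000273217, which overlaps it and did not exceed 7.47 CPM.

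RRAGD, the paralog of RRAGC (ENSG00000025039, chr6:89364616-89412273, minus strand), was the only member that fell in more than 1 comparison with DMSO, and it moved in opposite directions with NCP26 and HFG at 24 h in AMO1. DMSO gave 207, 180 and 201 CPM, NCP26 243, 223 and 230, HFG 142, 126 and 112 and CFZ 68.6, 67.9 and 72.7. The 4 groups were separate. Halofuginol gave 222, 237 and 242 CPM, also above every DMSO library and overlapping NCP26, without a call. The change was 0.24 ± 0.058 with NCP26 (adjusted p = 0.00064), −0.64 ± 0.083 with HFG (adjusted p = 2.8e-06) and −1.47 ± 0.11 with CFZ (2.77-fold lower, adjusted p = 8.9e-05, and −1.46 without CFZ replicate 2). The rise with NCP26 was 0.18 with the set term (adjusted p = 0.4). At 6 h CFZ lowered it from 119, 127 and 124 CPM to 95.1, 90.2 and 89.4, by 0.43 on the log2 scale (SE 0.081, adjusted p = 0.00034), and HFG gave 0.05 (adjusted p = 0.59). In L363-CFZr it was lower from the start, at 65.4, 64.0 and 63.9 CPM with DMSO at 6 h, and passed the test in none of 8 comparisons with DMSO, where its changes lay between −0.09 and 0.21.

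SESN3, a sestrin that restrains mTORC1 through GATOR2 and AMPK and is a known FOXO target (ENSG00000149212, chr11:95165513-95232541, minus strand), was called most often. In AMO1 at 6 h DMSO gave 9.90, 7.69 and 8.49 CPM, NCP26 10.6, 13.3 and 16.2, HFG 13.8, 17.3 and 17.2 and CFZ 10.3, 14.9 and 16.6. All libraries of NCP26, HFG and CFZ lay above DMSO, by a small margin for the lowest of NCP26 and CFZ. Those of NCP22 (10.7, 12.2 and 14.9 CPM) and halofuginol (11.3, 12.2 and 11.2) did so too, without a call, and overlapped NCP26. The change was 0.94 ± 0.19 with HFG (adjusted p = 0.00066), 0.63 ± 0.23 with NCP26 (adjusted p = 0.046) and 0.68 ± 0.23 with CFZ (adjusted p = 0.03). The NCP26 call was lost with the GC offset (0.34, adjusted p = 0.31), with DESeq2 (0.12) and without any 1 of the libraries other than NCP26 replicate 1 (adjusted p = 0.066 to 0.17), and the CFZ call with DESeq2 (0.14) and without DMSO replicate 2 or 3 or CFZ replicate 2 or 3 (0.06 to 0.17). At 24 h DMSO gave 11, 12.5 and 14.2 CPM, HFG 25.9, 38.9 and 30.1, CFZ 23.1, 34.1 and 22.1 and NCP26 19.7, 18.9 and 13.3. HFG and CFZ were apart from DMSO, and NCP26 overlapped it. The change was 1.31 ± 0.17 with HFG (2.49-fold, adjusted p = 2.7e-06), 1.07 ± 0.22 with CFZ (adjusted p = 0.0089, and 0.83 with adjusted p = 0.00083 without CFZ replicate 2) and 0.42 ± 0.18 with NCP26 (adjusted p = 0.041). The last call held under 1 of the 7 other settings and was lost without any 1 of DMSO replicates 1 and 2 and NCP26 replicates 1 and 2 (adjusted p = 0.11 to 0.18). It went in L363-CFZr at 6 h from 25.6, 29.6 and 21.7 CPM to 49.0, 51.1 and 47.4 with HFG, by 1.00 ± 0.12 (adjusted p = 3e-07), and to 44.4, 40.8 and 41 with halofuginol, by 0.75 ± 0.12 (adjusted p = 0.00047). SESN3 has the lowest GC content of the members, both these groups are in another set than DMSO, and with the GC offset the changes were 0.54 (adjusted p = 0.0003) and 0.44 (adjusted p = 0.045), with the set term 0.96 (0.056) and 0.74 (0.26). At 24 h, NCP26 gave 0.18 (adjusted p = 0.7), and 0.50 (adjusted p = 0.0096) without DMSO replicate 2, at 54.5 CPM against 28.6 and 32.8.

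TSC1, the hamartin subunit of the complex that turns off RHEB (ENSG00000165699, chr9:132891348-132946874, minus strand), was called in AMO1 alone. HFG at 6 h took it from 51.8, 44 and 41.8 CPM to 54.4, 57.9 and 65.7, by 0.42 ± 0.11 (adjusted p = 0.0046). NCP26 at 24 h took it from 66.7, 70.5 and 64.5 CPM to 92.5, 86.7 and 100, by 0.47 ± 0.08 (adjusted p = 8.1e-06, and 0.28 with adjusted p = 0.47 with the set term). Both treated groups lay above DMSO, whereas HFG at 24 h gave 61.3, 56.6 and 59.9 CPM, below every DMSO library, at −0.18 (adjusted p = 0.08). Halofuginol at 6 h gave 50.8, 56.5 and 51.6 CPM, overlapping both DMSO and HFG. The test of HFG against halofuginol at 6 h gave 0.20 (adjusted p = 0.078). CFZ at 6 h gave 60.8, 64.1 and 49.4 CPM, overlapping DMSO, with 0.33 ± 0.12 (adjusted p = 0.048), lost with DESeq2 (0.15) and without DMSO replicate 2 or 3 or CFZ replicate 1 or 2 (0.12 to 0.21). In L363-CFZr the changes at 6 h lay between −0.23 and 0.03.

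MTOR, the kinase itself (ENSG00000198793, chr1:11106535-11262556, minus strand), and RPTOR, the raptor scaffold (ENSG00000141564, chr17:80544819-80966371, plus strand), gave the fewest calls against DMSO, 2 and 1. MTOR with NCP26 at 24 h in AMO1 was 96.3, 90.3 and 85.8 CPM against 85.4, 74.1 and 74.9, a change of 0.23 ± 0.079 (adjusted p = 0.015). The lowest NCP26 library lay just above the highest DMSO library, and the call was lost with DESeq2 (0.067), with the set term, where the change was −0.23 (adjusted p = 0.5), and without DMSO replicate 2 or 3 or NCP26 replicate 1 (0.06 to 0.082). With HFG in L363-CFZr at 6 h it was 91.9, 79.1 and 87.8 CPM against 105, 103 and 106, all lower, a change of −0.24 ± 0.077 (adjusted p = 0.012) that was −0.06 with the GC offset (adjusted p = 0.51) and −0.19 without HFG replicate 2 (adjusted p = 0.062). RPTOR was called once, with halofuginol in L363-CFZr at 6 h, at 34.2, 32.3 and 32.2 CPM against 39.1, 39.5 and 51.1, by −0.41 ± 0.11 (adjusted p = 0.01). This became −0.19 with the GC offset (adjusted p = 0.37) and −0.26 without DMSO replicate 3 (adjusted p = 0.12). In the 2 libraries that stood apart both genes were at their highest in all 66 libraries, MTOR at 175 CPM in AMO1 CFZ replicate 2 and 161 in L363-CFZr DMSO replicate 2 and RPTOR at 65.9 and 70.6. With CFZ at 24 h MTOR changed by 0.68 ± 0.24 (adjusted p = 0.068), by 0.34 (adjusted p = 0.005) without that library and by 0.84 (0.038) without CFZ replicate 3. RPTOR was at 0.64 (adjusted p = 0.097) and, without CFZ replicate 3, at 0.81 (0.049).

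DEPTOR, the inhibitory subunit of both mTOR complexes (ENSG00000155792), rose in AMO1 at 24 h with HFG and CFZ and not detectably with NCP26. DMSO gave 79.1, 69.4 and 73.1 CPM, HFG 157, 167 and 174, CFZ 154, 120 and 167 and NCP26 66, 81.8 and 78.5. HFG and CFZ lay clear of DMSO, with NCP26 around it. The change was 1.18 ± 0.072 with HFG (2.27-fold, adjusted p = 1.1e-10), 1.01 ± 0.14 with CFZ (adjusted p = 0.0013, and 1.14 without CFZ replicate 2) and 0.04 ± 0.086 with NCP26 (adjusted p = 0.74, 95% interval −0.14 to 0.21). At 6 h CFZ gave 92.4, 93.8 and 94.0 CPM against 75.3, 72.3 and 80.0, a change of 0.30 ± 0.086 (adjusted p = 0.013, and 0.057 without DMSO replicate 2), while HFG gave −0.00 (adjusted p = 0.99). In L363-CFZr DEPTOR was high in every group, from 184 to 260 CPM, and was called at 6 h with HFG (0.18, adjusted p = 0.016) and halofuginol (0.18, adjusted p = 0.024). With the GC offset these were at adjusted p = 0.063 and 0.17, and leaving out DMSO replicate 3 gave 0.14 (adjusted p = 0.057) and 0.13 (0.089). The HFG call was also lost without HFG replicate 1 (0.077) and the halofuginol call without any 1 halofuginol replicate (0.057 to 0.12).

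EIF4EBP1, the 4E-BP1 repressor of cap-dependent translation that mTORC1 phosphorylates and a known ATF4 target (ENSG00000187840), gave the largest change of any member. In L363-CFZr at 6 h it was 48.6, 53.8 and 56.7 CPM with DMSO, 198, 308 and 173 with NCP26 and 185, 187 and 182 with HFG. All treated libraries exceeded 3 times the highest DMSO library, with NCP26 replicate 2 highest. The change was 2.11 ± 0.20 with NCP26 (4.32-fold, adjusted p = 6.6e-05) and 1.83 ± 0.077 with HFG (3.54-fold, adjusted p = 1.9e-15). At 24 h DMSO gave 46.1, 24.6 and 47.4 CPM, NCP26 133, 158 and 142 and HFG 117, 125 and 136. The low DMSO value is replicate 2, which stood apart. The change was 1.87 ± 0.24 with NCP26 (adjusted p = 0.0056) and 1.66 ± 0.23 with HFG (adjusted p = 0.022), and 1.64 (adjusted p = 2.5e-07) and 1.43 (adjusted p = 1.1e-11) without replicate 2. With that library kept, the HFG call was lost without any 1 of the other 5 (adjusted p = 0.067 to 0.17). In AMO1 at 6 h, by contrast, DMSO gave 75.9, 79.0 and 71.1 CPM, NCP26 103, 76.1 and 77.0 and HFG 75.9, 69.4 and 73.6. Both overlapped DMSO, with 0.18 (adjusted p = 0.29) and −0.01 (adjusted p = 0.92), and with the GC offset 0.45 (adjusted p = 0.013) and 0.25 (0.019), a change of sign for HFG. CFZ raised it there to 110, 107 and 116 CPM, by 0.55 ± 0.085 (adjusted p = 4.2e-05). At 24 h in AMO1 it went from 59.0, 54.5 and 53.8 CPM to 142, 122 and 152 with HFG, by 1.32 ± 0.085 (2.5-fold, adjusted p = 2.3e-10), and to 63.5, 72.7 and 60.3 with NCP26, by 0.24 ± 0.089 (adjusted p = 0.023). The small NCP26 change was at adjusted p = 0.1 with DESeq2 and 0.08 to 0.18 without DMSO replicate 2 or 3 or NCP26 replicate 2.

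NCP22 and halofuginol gave few calls against DMSO. NCP22 raised RRAGC in AMO1 at 6 h (1 of 10 members, with 13.5% of all genes called), and called none at 24 h (0% of all genes) or in L363-CFZr at 6 h (0%) or 24 h (0%). In these 3 comparisons edgeR's test gave 638, 666 and 213 genes at an unadjusted p under 0.05, none of them a member, and DESeq2 called 3, 1 and 0 genes. Halofuginol called none of the members in AMO1 at 6 h (3.62% of all genes) or 24 h (0.183%), with 1 and 2 members at an unadjusted p under 0.05 and 0 and 1 called by DESeq2. In L363-CFZr it raised DEPTOR and SESN3 and lowered RPTOR at 6 h (25.8%) and called none at 24 h (0%), with 2 members at an unadjusted p under 0.05 and 0 by DESeq2. EIF4EBP1 in L363-CFZr at 6 h was 53.7, 52.7 and 61.1 CPM with NCP22 and 51.8, 50.9 and 52.3 with halofuginol, both overlapping DMSO, at 0.09 (95% interval −0.14 to 0.31) and −0.04 (−0.23 to 0.14). Without DMSO replicate 2, NCP22 and halofuginol again called 0 members at 24 h in L363-CFZr, where 0 of 10832 and 0 of 10622 genes were called.

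Some values passed the test only when 1 library was left out. In AMO1 with NCP26 at 6 h these were TSC1 without NCP26 replicate 1 (0.42, adjusted p = 0.013) and RPTOR without replicate 3 (−0.51, 0.02). In L363-CFZr with NCP26 at 6 h they were FNIP1 (0.48, 0.014) and SESN3 (0.60, 0.01) without NCP26 replicate 2, which correlated less with its group than the others did, and MTOR without replicate 2 (−0.25, 0.038) or 3 (−0.55, 0.016). RPTOR passed with HFG at 6 h without DMSO replicate 1 or 2 (both −0.30, adjusted p = 0.048 and 0.039), and FNIP1 with halofuginol without DMSO replicate 2 (0.48, 0.0039). At 24 h, without the DMSO replicate 2 that stood apart, FLCN passed with NCP26 (0.36, 0.047) and RRAGC with HFG (0.39, 0.023), which made 5 members higher with NCP26 (28.6% of all genes called) and 2 with HFG (19.5%). Leaving it out also turned the sign of 3 members with NCP26 (DEPTOR, MTOR and RPTOR) and 4 with HFG (FLCN, FNIP1, MTOR and RPTOR), none of them called with or without it.

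The related compounds were compared with each other at the same dose and time, in 8 comparisons that gave 36 calls in 80 tests of members. Both groups of each pair lie in the same set of libraries, also in AMO1 at 24 h. The exception is NCP26 against NCP22 in L363-CFZr at 6 h, where 1 NCP22 library lies in another set. NCP26 against NCP22 raised 2 members in AMO1 at 6 h (24.7% of all genes called), 4 at 24 h (52%), 2 with 1 lowered in L363-CFZr at 6 h (20.4%) and 5 at 24 h (34.1%). RRAGC was higher with NCP26 in all 4, by 0.55 ± 0.11 (adjusted p = 0.0048) and 0.93 ± 0.10 (5.3e-06) in AMO1 at 6 h and 24 h and by 0.46 ± 0.13 (0.028) and 0.59 ± 0.13 (0.0029) in L363-CFZr. The L363-CFZr value at 6 h lost its call with the GC offset (0.066) and without NCP26 replicate 1 or any NCP22 replicate (0.065 to 0.1). FLCN was higher in AMO1 alone, by 0.71 ± 0.12 (adjusted p = 0.0013) and 1.01 ± 0.075 (1.2e-07), and in L363-CFZr the difference was −0.26 (adjusted p = 0.14, 95% interval −0.52 to −0.00) and 0.14 (0.32, −0.08 to 0.35). EIF4EBP1 was higher in L363-CFZr alone, by 2.01 ± 0.19 (adjusted p = 5.1e-05) and 1.40 ± 0.098 (9.8e-08), and in AMO1 the difference was 0.06 (0.76, −0.20 to 0.32) and 0.07 (0.61, −0.15 to 0.29). For DEPTOR none of the 4 differences passed, the widest interval being −0.42 to 0.04 in AMO1 at 6 h. RRAGD likewise passed in none, with differences from 0.03 to 0.24. TSC1 was higher with NCP26 in AMO1 at 24 h, by 0.58 ± 0.092 (adjusted p = 0.00013). At 24 h FNIP1, SESN3 and RPTOR were higher in L363-CFZr, by 0.35 ± 0.095 (0.011), 0.44 ± 0.12 (0.0096) and 0.57 ± 0.17 (0.02), the RPTOR value falling to 0.37 (adjusted p = 0.076) without NCP26 replicate 1 and to 0.48 (0.076) without NCP22 replicate 1. SESN3 was at adjusted p = 0.05 without NCP26 replicate 2. MTOR differed in opposite directions, by 0.35 in AMO1 at 24 h (adjusted p = 0.019) and −0.51 in L363-CFZr at 6 h (0.048), and lost both calls without 1 of several libraries (0.052 to 0.09 without NCP22 replicate 2 or 3 or NCP26 replicate 1 or 2 in AMO1, 0.11 to 0.2 without NCP22 replicate 1 or 3 or NCP26 replicate 1 in L363-CFZr). With all groups of the line in one fit, the FNIP1, SESN3 and RPTOR values of L363-CFZr at 24 h were at adjusted p = 0.097, 0.072 and 0.1.

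HFG against halofuginol raised 5 members and lowered 1 in AMO1 at 6 h (51.7% of all genes called), raised 7 and lowered 1 at 24 h (56.6%), and raised 4 in L363-CFZr at 6 h (47.3%) and 4 at 24 h (21.9%). RRAGC was higher with HFG in all 4, by 1.23 ± 0.11 (adjusted p = 9.9e-08) and 0.32 ± 0.10 (0.013) in AMO1 and 0.27 ± 0.091 (0.014) and 0.53 ± 0.11 (0.0032) in L363-CFZr, and SESN3 too, by 0.52 ± 0.17 (0.017), 1.24 ± 0.19 (2.4e-05), 0.25 ± 0.084 (0.016) and 0.50 ± 0.13 (0.0097). Leaving out 1 HFG replicate ended the RRAGC call in AMO1 at 24 h (replicate 2, 0.056), the RRAGC call in L363-CFZr at 6 h (replicate 1, 0.18) and the SESN3 calls in AMO1 at 6 h (replicate 3, 0.074) and in L363-CFZr at 6 h (replicate 2, 0.057) and 24 h (replicate 3, 0.061). Leaving out halofuginol replicate 2 in L363-CFZr at 6 h also ended the RRAGC call (0.11) and the SESN3 call (0.069). EIF4EBP1 was higher with HFG in L363-CFZr by 1.87 ± 0.058 (adjusted p = 2.3e-21) and 1.17 ± 0.086 (8.9e-08) and in AMO1 at 24 h by 1.23 ± 0.092 (3e-09), and lower in AMO1 at 6 h by 0.23 on the log2 scale (SE 0.08, adjusted p = 0.022). That small fall was at adjusted p = 0.19 with the GC offset and 0.059 to 0.098 without HFG replicate 2 or 3 or halofuginol replicate 1 or 3. FLCN was higher in AMO1 by 0.97 ± 0.073 (7.9e-09) and 0.39 ± 0.091 (0.0013), against −0.02 (0.85, 95% interval −0.19 to 0.15) and 0.24 (0.1, 0.02 to 0.45) in L363-CFZr. At 24 h in AMO1 DEPTOR was 1.32 ± 0.091 higher (9.5e-10), FNIP1 1.45 ± 0.15 higher (1.6e-07), MTOR 0.47 ± 0.092 higher (0.00029) and RRAGD 0.88 lower (−0.88 ± 0.084, 8.1e-08). For MTOR the halofuginol libraries (68.3, 58.7 and 63 CPM) all lay below DMSO (85.4, 74.1 and 74.9). The HFG libraries (83.2, 88.9 and 86.4) overlapped DMSO, and neither compound was called against it. In AMO1 at 6 h FNIP1 was 0.55 ± 0.21 higher (0.037, and 0.06 to 0.21 without HFG replicate 3 or halofuginol replicate 2 or 3) and MTOR 0.21 ± 0.075 higher (0.03, and 0.069 to 0.11 without HFG replicate 2 or 3 or halofuginol replicate 1 or 3). In L363-CFZr FNIP1 was 0.45 ± 0.089 higher at 6 h (0.00013), MTOR was 0.32 ± 0.088 higher at 24 h (0.017, and 0.073 to 0.084 without HFG replicate 1 or 3 or halofuginol replicate 2), and DEPTOR differed by 0.00 (−0.09 to 0.09) and −0.01 (−0.14 to 0.11). There too, the MTOR libraries of halofuginol at 24 h all lay below DMSO, and those of HFG overlapped DMSO.

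**Figure D3:**
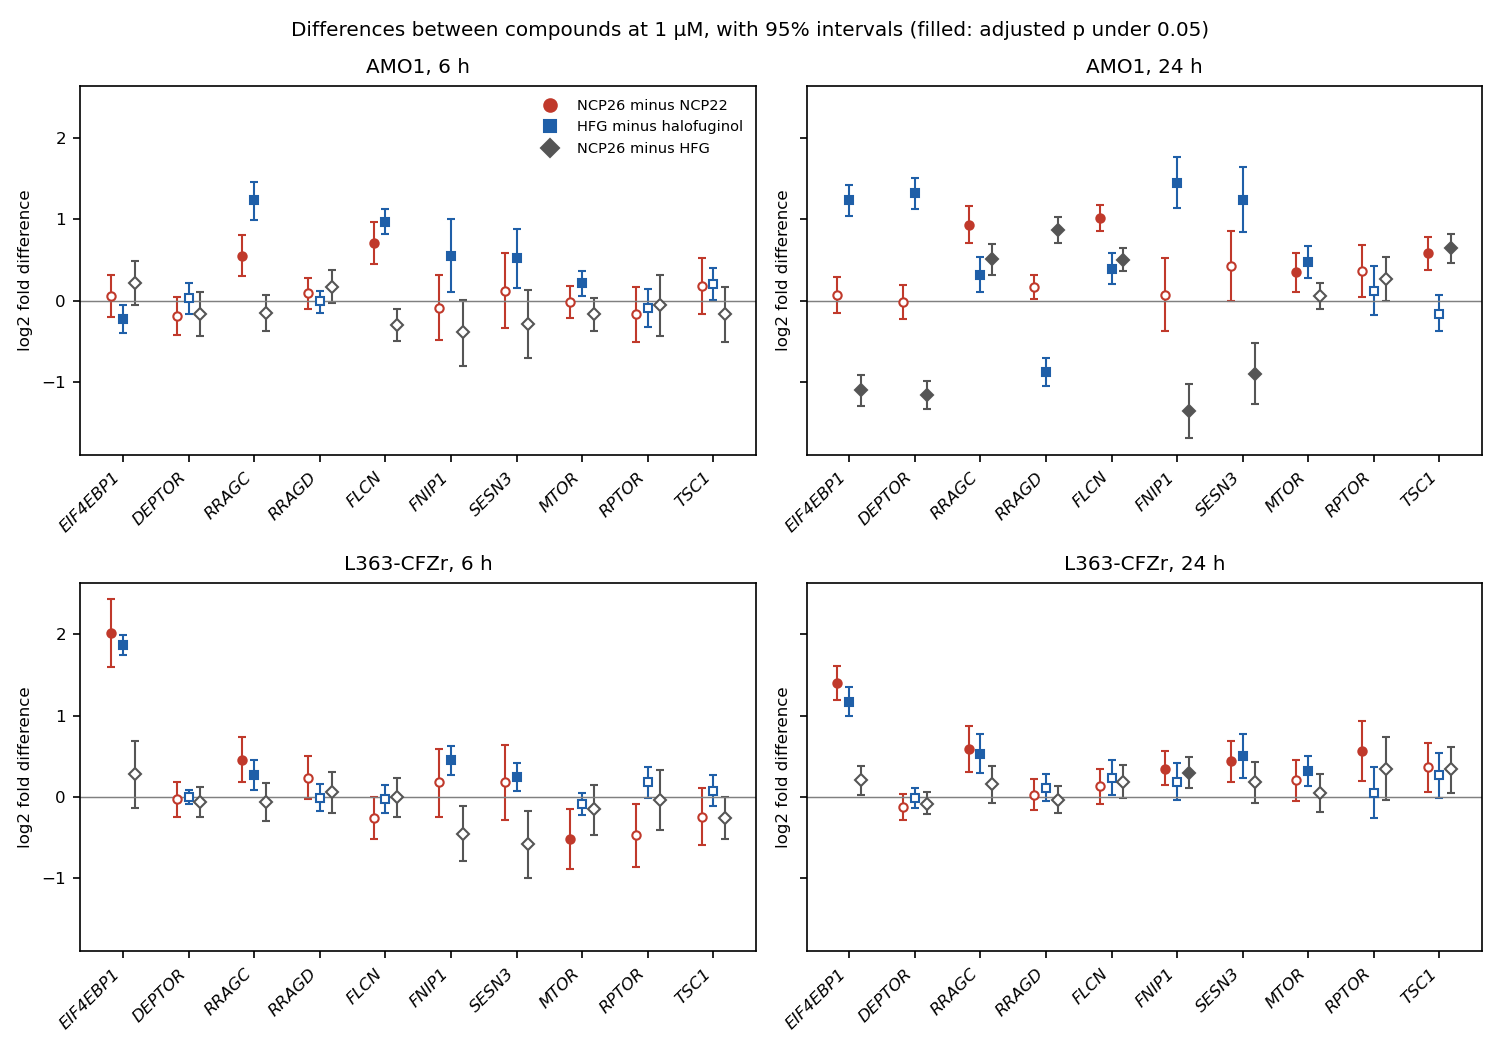
Log2 fold changes with 95% intervals of the 10 members for NCP26 minus NCP22, HFG minus halofuginol and NCP26 minus HFG, one panel per line and time. Filled points passed the test. EIF4EBP1 is highest in both L363-CFZr panels, and at 24 h in AMO1 the values of NCP26 minus HFG reach from −1.36 for FNIP1 to 0.87 for RRAGD.

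NCP26 and HFG, both inhibitors of ProRS, differed in their effect on the members at 24 h in AMO1. At 6 h 0 of 10 members were called in AMO1 (0.26% of all genes) and 0 in L363-CFZr (0%), with edgeR giving 1 and 2 members at an unadjusted p under 0.05 and DESeq2 calling 0 in both. Of all tested genes, 1416 of 10749 and 1188 of 10688 were at an unadjusted p under 0.05, and DESeq2 called 70 and 0. The 6 h libraries of L363-CFZr with NCP26 and HFG are in different sets, and their differences correlated with GC content at 0.51 across genes. At 24 h in AMO1 8 members were called (44.9%). RRAGC was 0.51 ± 0.093 higher with NCP26 (adjusted p = 0.00023), RRAGD 0.87 ± 0.077 (4.7e-08), FLCN 0.50 ± 0.069 (1e-05) and TSC1 0.64 ± 0.086 (7.9e-06). EIF4EBP1 was lower by −1.10 ± 0.09 (1.8e-08), DEPTOR by −1.16 ± 0.08 (1.7e-09), FNIP1 by −1.36 ± 0.16 (1.3e-06) and SESN3 by −0.90 ± 0.18 (0.0005). The NCP26 and HFG libraries of AMO1 at 24 h are in the same set. In L363-CFZr at 24 h only FNIP1 was called (1 of 10, 12.9%), at 0.30 ± 0.088 (0.037), and leaving out any 1 of HFG replicates 1 to 3 or NCP26 replicates 2 and 3 ended the call (0.062 to 0.17).

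The lines were compared under DMSO and then in their response. L363-CFZr differed from AMO1 in 6 members at 6 h (60.2% of all genes called) and in 5 at 24 h (39.9%). DEPTOR was at 230, 222 and 210 CPM in L363-CFZr against 75.3, 72.3 and 80.0 in AMO1 at 6 h, 1.52 ± 0.084 higher (adjusted p = 3.5e-12), and 1.52 ± 0.13 higher at 24 h (0.00014). FNIP1 was 1.76 ± 0.20 higher at 6 h (1.8e-07) and 2.09 ± 0.22 at 24 h (0.00036), SESN3 1.51 ± 0.19 (1.1e-06) and 1.59 ± 0.28 (0.0036), and RRAGD was −0.96 ± 0.089 (1.1e-08) and −1.34 ± 0.11 (0.00014). These 4 genes kept their direction and call at 24 h without DMSO replicate 2 of L363-CFZr, with 1.60, 1.85, 1.25 and −1.30. At 6 h RRAGC was 0.52 ± 0.13 higher (0.002) and EIF4EBP1 was at −0.52 ± 0.10 (0.00017), which became −0.08 (0.86) with the set term. FLCN was at 0.06 at 6 h (0.63) and −0.73 ± 0.18 at 24 h (0.016), where leaving out AMO1 DMSO replicate 1 or 2 gave adjusted p = 0.052 and 0.066. Without DMSO replicate 2 of L363-CFZr, 8 members were called at 24 h (65% of all genes), adding EIF4EBP1 (−0.25), MTOR (0.27) and TSC1 (−0.56).

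The difference between the lines in the response to a compound was tested as an interaction. For NCP26 it was called in 3 members at 6 h (2.71% of all genes) and 2 at 24 h (5.41%), and for HFG in 4 at 6 h (20.7%) and 4 at 24 h (16.9%). The response of EIF4EBP1 was larger in L363-CFZr by 1.91 ± 0.26 with NCP26 (adjusted p = 0.00046) and 1.85 ± 0.11 with HFG (7.8e-11) at 6 h and by 1.61 ± 0.26 with NCP26 at 24 h (0.0047). With HFG at 24 h it was 0.33 (0.38, 95% interval −0.20 to 0.87). The response of FLCN was lower in L363-CFZr, by −1.01 ± 0.15 with NCP26 (0.0008) and −1.30 ± 0.12 with HFG (6e-08) at 6 h and −0.79 ± 0.19 with NCP26 at 24 h (0.031), and RRAGC by −0.75 ± 0.16 (0.016) and −0.82 ± 0.16 (0.00063) at 6 h. The RRAGC value with NCP26 was −0.66 (0.059) without DMSO replicate 1 of L363-CFZr, and the FLCN value at 24 h lost its call without any 1 of 8 of the 12 libraries (0.06 to 0.089) but was −0.63 (0.002) without DMSO replicate 2 of L363-CFZr. With the set term it was −0.46 (0.23). With HFG at 24 h the difference was −1.07 ± 0.14 for DEPTOR (0.00033), −1.54 ± 0.24 for FNIP1 (0.0012) and −1.32 ± 0.35 for SESN3 (0.02). These 3 genes rose in AMO1 and passed in neither direction in L363-CFZr, where they were at 0.11, −0.19 and 0.00. For RRAGD it was 0.84 ± 0.15 (0.0026), since RRAGD fell in AMO1, while in L363-CFZr the HFG libraries, at 89.5, 84.2 and 94.4 CPM, all lay above DMSO, at 81.9, 71.3 and 78 CPM, with a change of 0.21 (adjusted p = 0.38). Without DMSO replicate 2 of L363-CFZr these 4 were −1.16, −1.31, −0.99 and 0.81, each still called, with 33.4% of all genes called, and the NCP26 difference was called in 3 members (21.1%), RRAGC (−0.45, 0.037) being added. The SESN3 call ended at adjusted p = 0.05 to 0.059 without AMO1 DMSO replicate 1 or 2 or HFG replicate 2 of either line. The MTOR difference with HFG at 6 h (−0.32, 0.042) was lost without any 1 of 9 of the 12 libraries (0.052 to 0.099). The DMSO libraries of AMO1 and L363-CFZr are in different sets at each time, so that these libraries alone cannot tell line from set. The set term was fitted over all 66 libraries, where AMO1 CFZ at 24 h and L363-CFZr NCP22 at 6 h are the groups that span 2 sets, each with 1 library apart from the other replicates, and it rests on them.

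**Figure D4:**
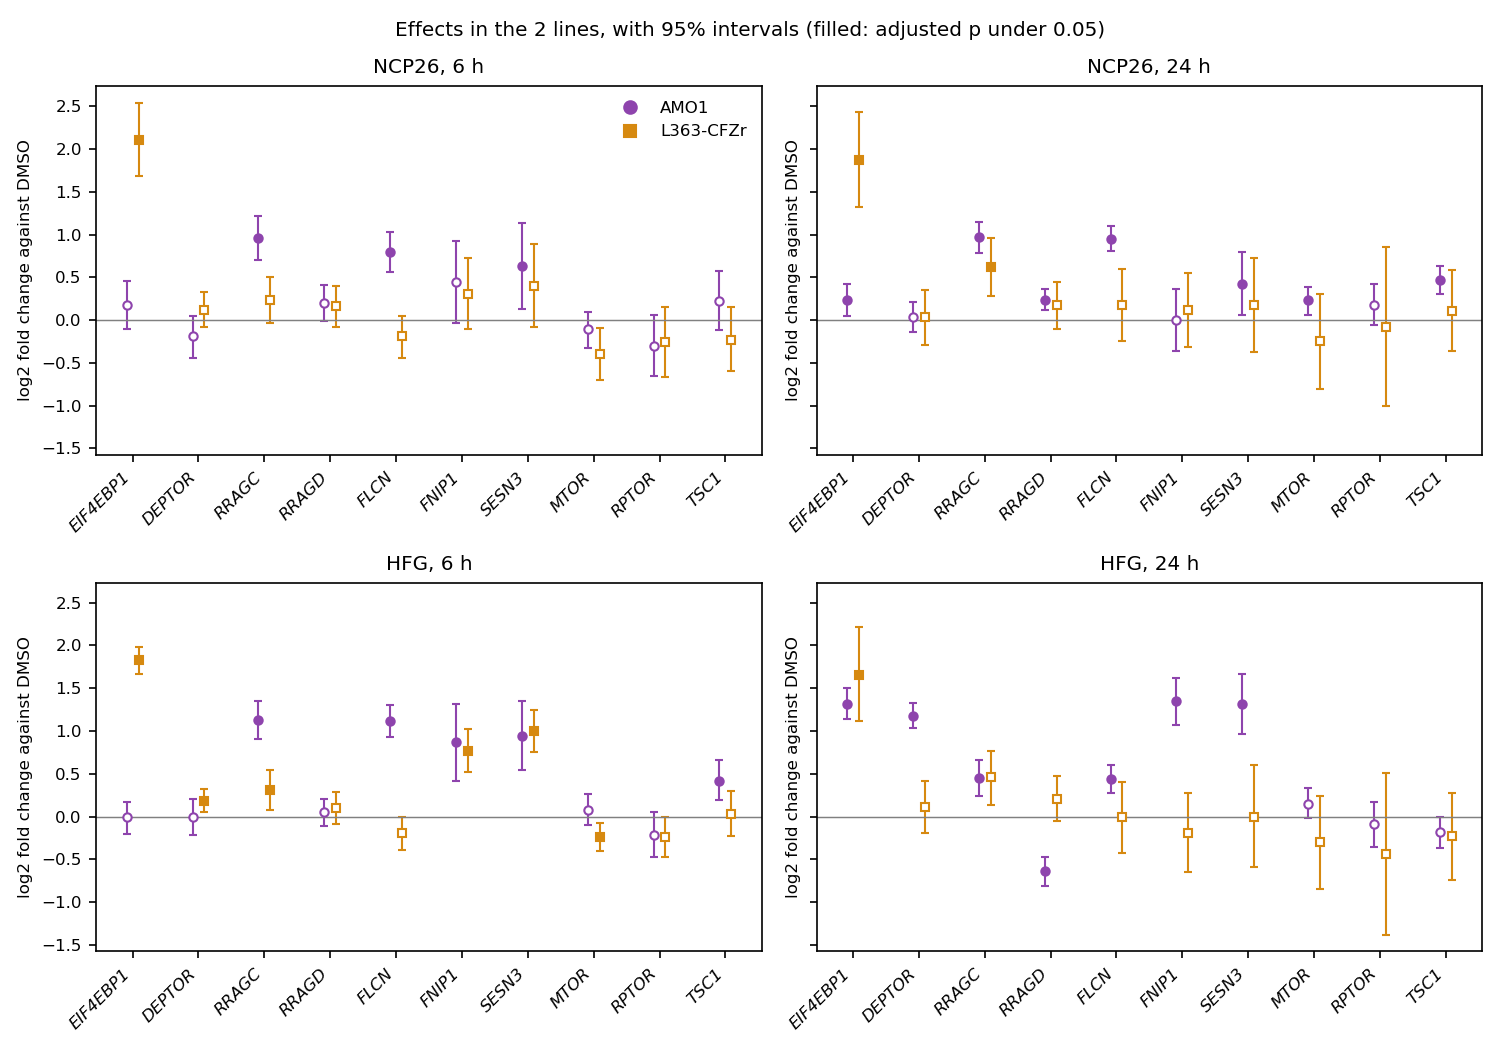
Effects of NCP26 and HFG against DMSO (log2 fold change with 95% interval) in AMO1 and L363-CFZr for the 10 members, one panel per compound and time. Within the 6 h panels the AMO1 and L363-CFZr points are furthest apart for EIF4EBP1 and FLCN, with differences of 1.91 and −1.01 for NCP26. At 24 h EIF4EBP1 differs by 1.61 with NCP26 and FNIP1 by −1.54 with HFG.

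Between 6 h and 24 h the DMSO libraries of AMO1 themselves differed in 9 of 10 members (46.5% of all genes called). RRAGD rose by 0.67 ± 0.078 (adjusted p = 2.7e-07), FLCN by 0.53 ± 0.095 (7.1e-05), TSC1 by 0.55 ± 0.10 (0.00012), FNIP1 by 0.68 ± 0.20 (0.0064), RRAGC by 0.43 ± 0.12 (0.0047) and SESN3 by 0.56 ± 0.20 (0.029). EIF4EBP1 (−0.44 ± 0.093, 0.00046), RPTOR (−0.61 ± 0.11, 0.00013) and MTOR (−0.27 ± 0.089, 0.016) fell, and DEPTOR did not pass (−0.04, 0.73). The SESN3 call was lost without replicate 2 or 3 of either time (0.059 to 0.14), the MTOR call without replicate 2 or 3 at 24 h (0.091 and 0.068) and the FNIP1 call without replicate 2 at 6 h (0.055). In L363-CFZr FNIP1 was called (1 of 10, 14.8%), at 0.98 ± 0.23 (0.032). Without DMSO replicate 2 at 24 h 5 were called (41.1%), FNIP1 (0.77), RRAGD (0.32), RRAGC (−0.37), FLCN (−0.46) and RPTOR (−0.72). With replicate 2 kept, the FNIP1 call was lost without any 1 of replicate 3 at 24 h and the 6 h replicates (0.05 to 0.15). By the methods of the study, the earlier samples were kept frozen until the next day before extraction and the later ones on ice, so that time and storage cannot be told apart. In L363-CFZr the DMSO libraries at 6 h and 24 h also lie in different sets, so that time and set cannot be told apart there. The fall of EIF4EBP1 and rise of RRAGD and FLCN under DMSO mean that a level at 24 h is read against its own DMSO only.

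Per kilobase of transcript, EIF4EBP1 was the most abundant member under DMSO at 6 h in AMO1, at 91.1 CPM per kb, followed by DEPTOR (29.5), RRAGD (25), FLCN (14.8), MTOR (10.8), RRAGC (10.6), RPTOR (6.63), TSC1 (5.34), FNIP1 (1.46) and SESN3 (0.909). In L363-CFZr the order at 6 h was DEPTOR (85.9), EIF4EBP1 (64.1), FLCN (15.6), RRAGC (15.5), RRAGD (13.1), MTOR (12), RPTOR (6.32), FNIP1 (5.10), TSC1 (4.34) and SESN3 (2.68). Neighbours such as MTOR and RRAGC in AMO1 or FLCN and RRAGC in L363-CFZr were as close as their replicates. Over the 22 group means, centred within each line on a log2(CPM + 1) scale, FNIP1 and SESN3 correlated at 0.87, RRAGC and FLCN at 0.85 and MTOR and RPTOR at 0.75, while RRAGD and RPTOR were at −0.69. These points share sets of libraries and the GC trend. In group means without the 2 libraries that stood apart, the 4 values were 0.84, 0.86, 0.71 and −0.58. The genes of the whole table most alike to EIF4EBP1 by the same measure were PSAT1 (0.96), SLC1A5 (0.95) and RCN1 (0.95). For RRAGC they included CSGALNACT2 (0.92) and PAFAH1B1 (0.91), and for SESN3 they were NRAS (0.90), SPART (0.90) and UBXN2B (0.90).

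A list of 56 other genes of the pathway was counted by role. In AMO1 NCP26 raised 6 and lowered 13 of 48 tested at 6 h and raised 21 and lowered 16 of 47 at 24 h, HFG raised 13 and lowered 12 of 48 and then raised 15 and lowered 12 of 48, and CFZ raised 9 and lowered 4 of 47 and then raised 4 and lowered 5. Their medians were −0.01, 0.03, 0.05, 0.09, 0.00 and −0.01. Among all genes 37.3%, 60.7%, 54.3%, 59%, 26.9% and 27% were called in these 6 comparisons, and the counts of the list as a whole say little beyond this background. In L363-CFZr at 6 h NCP26 raised 6 and lowered 3 of 48, HFG raised 12 and lowered 13 of 47 and halofuginol raised 8 and lowered 6 of 47, beside 18.8%, 54.5% and 25.8% of all genes called. At 24 h there NCP26 and HFG each raised 1 of 48, SESN2, beside 7.09% and 1.17% of all genes called. Without DMSO replicate 2, which stood apart, 28.6% and 19.5% of all genes were called, and the list was not counted again. Without replicate 2 of CFZ at 24 h in AMO1 the share of all genes called was 48.2%. Among the amino acid sensors SESN2, a leucine-binding sestrin, rose in 9 of 18 comparisons, by 2.82 with NCP26 at 6 h in L363-CFZr (adjusted p = 2.9e-07), 2.98 at 24 h (0.00016) and 1.63 in AMO1 at 24 h (5.4e-19). SESN1 fell in 6, all in AMO1, by 1.66 on the log2 scale with HFG at 24 h (adjusted p = 3.4e-11), where SESN3 rose. SESN1 also stands in the list of FOXO targets. LARS1, the leucyl-tRNA synthetase, rose in 8, by 0.65 with HFG at 24 h in AMO1 (5.3e-08).

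Of the other Rag and Ragulator genes, 8 of 8 tested rose with NCP26 in AMO1 at 24 h (median 0.56) and 6 of 8 with HFG (median 0.36), while 29.8% and 28.5% of all genes were higher. These treated libraries are in another set than DMSO. Against NCP22, in the same set, NCP26 raised 6 of 8 at 24 h (median 0.43), beside 26.3% of all genes higher. HFG raised 5 of 8 against halofuginol there (median 0.31), beside 27.9%. With CFZ at 24 h in AMO1 0 of 8 were called (27% of all genes), and in L363-CFZr HFG at 6 h lowered 3 (all genes 27.5%). FNIP2, the paralog of FNIP1, rose with NCP26 at 24 h by 0.75 (adjusted p = 8e-07), where FNIP1 did not, and RRAGB by 0.75 (0.0097). LAMTOR2 rose by 0.22 (0.039) and fell by 0.37 on the log2 scale with HFG at 6 h in L363-CFZr (0.0018). All 5 GATOR2 genes, whose complex relieves the block on the Rags, were lower with NCP26 at 24 h in AMO1 (median −0.40, with 30.9% of all genes lower), among them SEC13 (−0.72, adjusted p = 1.9e-09), WDR24 (−0.66, 0.00014) and SEH1L (−0.40, 0.0021), against 1 of 5 with HFG (30.5%). Against NCP22, in the same set, NCP26 lowered 3 of 5 there (median −0.38), beside 25.7% of all genes lower. Of GATOR1 and KICSTOR, which hold the Rags inactive, NCP26 at 24 h in AMO1 lowered 4 and raised 1 of 7 (all genes 30.9% and 29.8%). Among them NPRL2 was at −0.94 (1.1e-06) and KPTN at −1.25 (0.004). NPRL2 was lower in 6 comparisons, NCP26 and HFG at 6 h in both lines and at 24 h in AMO1.

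Among mTOR complex subunits PRR5, of mTORC2, changed by −3.61 with HFG at 24 h in AMO1 (adjusted p = 5.4e-11) and by −1.73 with NCP26 (8e-12). RICTOR rose in 6 comparisons at 6 h, some of them with NCP22 or halofuginol, by 1.23 with HFG in L363-CFZr (2.1e-08). In that comparison HFG and DMSO are in different sets and the changes correlated with GC content at −0.57. The list genes are not given with the GC offset or the set term. RICTOR fell with HFG at 24 h in AMO1 (−0.67, 4.5e-06). TELO2 fell in 5 comparisons and rose with CFZ at 24 h (0.48, 0.037), with the CFZ library that stood apart included. In the branch of TSC and RHEB, RHEB rose with NCP26 and HFG at 24 h in AMO1 by 0.90 (3.8e-11) and 0.92 (5.4e-08). STK11, the LKB1 kinase, was lower in 8 comparisons (−0.58 with NCP26 at 6 h in AMO1, 0.0043). DDIT4, the stress-induced repressor REDD1, fell with NCP26 and HFG at 6 h in AMO1 (−0.97, 2.6e-05, and −1.07, 1.1e-09) and rose with CFZ (0.78, 2.2e-10). Among effectors LPIN1 rose with NCP26 at 24 h in AMO1 by 1.13 (5.1e-19), TFEB by 0.29 (0.031) and TFE3 by 0.21 (0.023).

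**Figure D5:**
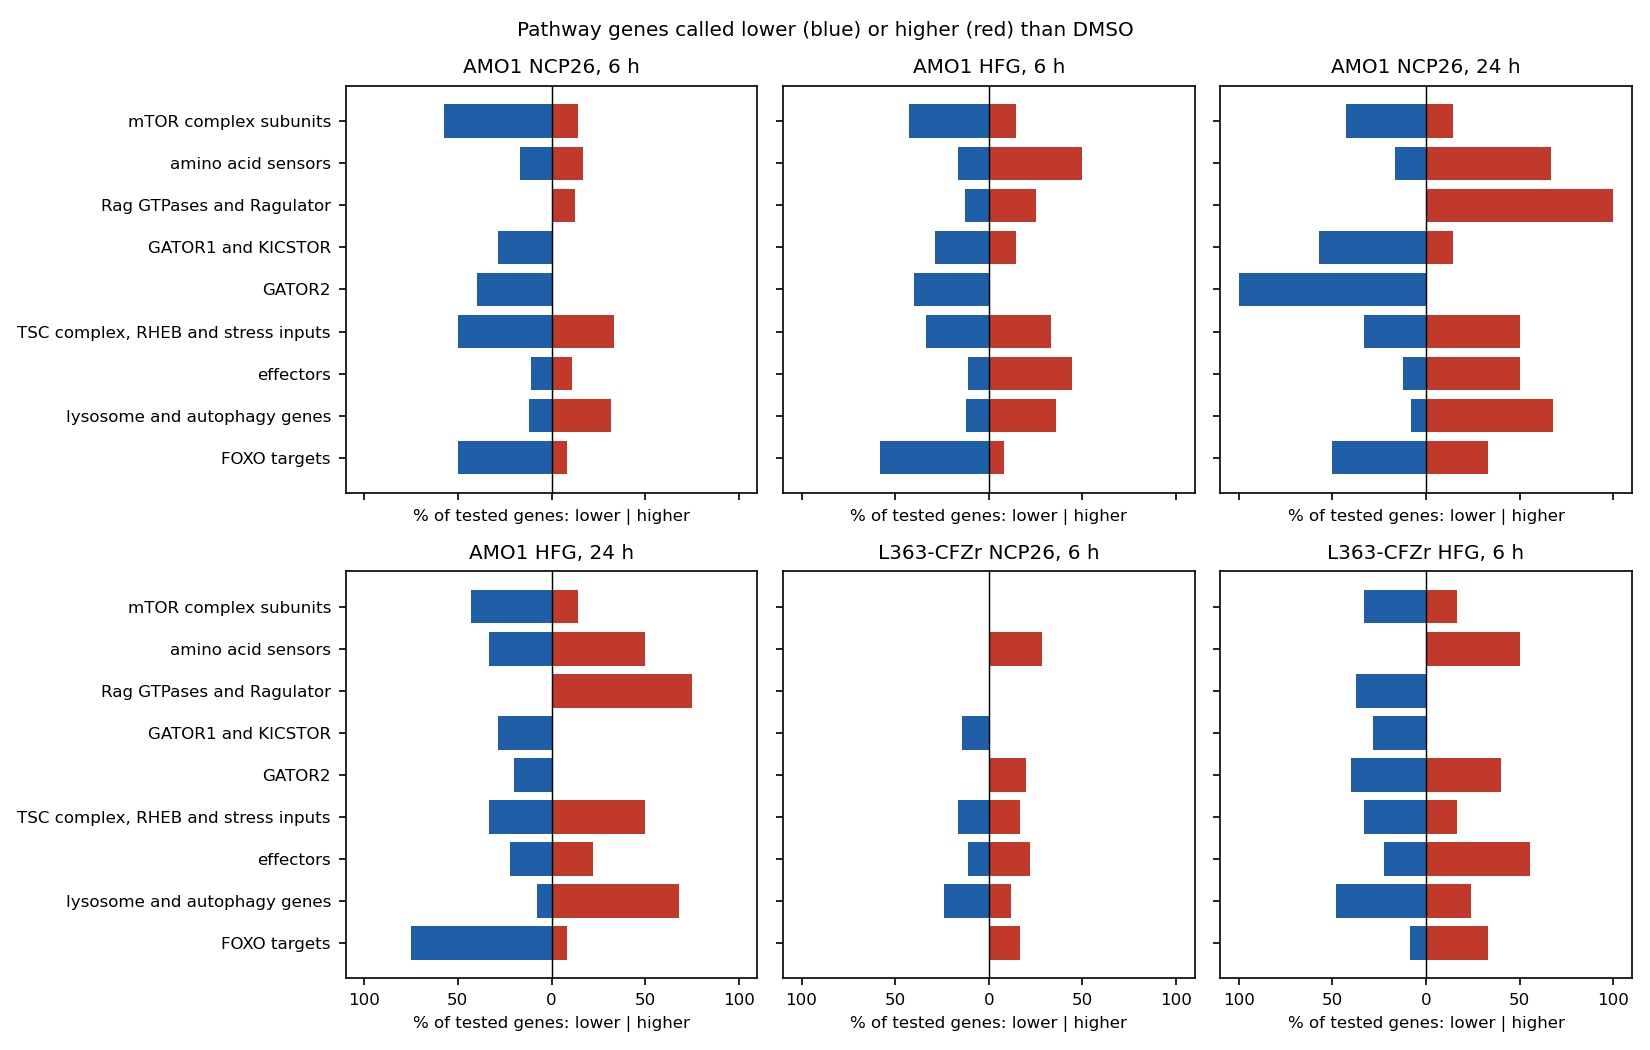
Percent of tested genes called lower (left bars) and higher (right bars) than DMSO in each role of the pathway list and in the lists of lysosomal genes and FOXO targets, in 6 comparisons. With NCP26 at 24 h in AMO1, the bar of the Rag and Ragulator genes shows 8 of 8 higher and that of the GATOR2 genes 5 of 5 lower. NCP26 and DMSO are in different sets of libraries there.

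Of 25 lysosomal and autophagy genes known as targets of TFEB and TFE3, 17 were higher and 2 lower at 24 h in AMO1 with both NCP26 (median 0.37) and HFG (median 0.26), where 29.8% and 28.5% of all genes were higher and 30.9% and 30.5% lower. With CFZ 9 were higher and 2 lower (median 0.21), beside 13.1% and 14% of all genes. At 6 h NCP26 raised 8 and lowered 3 (all genes 18.1% and 19.2%), HFG raised 9 and lowered 3 (27.7% and 26.6%) and CFZ raised 12 (14.1%). MAP1LC3B, an autophagosome protein, rose in 10 comparisons, by 1.36 with NCP26 at 24 h in AMO1 (adjusted p = 2.5e-19). SQSTM1, the autophagy receptor p62, rose by 1.51 there (1.9e-24) and by 2.12 with CFZ at 6 h (4.4e-18), and GABARAPL1 by 1.86 with CFZ at 6 h (2.5e-09). In L363-CFZr at 6 h HFG raised 6 and lowered 12 of the 25 (all genes 26.9% and 27.5%). Of 12 tested FOXO targets other than SESN3, HFG at 24 h in AMO1 lowered 9 and raised 1 and NCP26 lowered 6 and raised 4, beside the shares of all genes given for these comparisons. KLF2 was lower in 6 comparisons, all in AMO1 (−3.50 with HFG at 24 h, adjusted p = 1.3e-14), FBXO32 was lower in 4 and higher in 2 (−1.50 with HFG at 24 h, 2.1e-09), and GADD45A was higher in 5 and lower in 1 (1.45 with NCP26 at 6 h in L363-CFZr, 0.0034). Of 4 genes of the amino acid stress response, DDIT3 rose with NCP26 at 6 h by 1.86 in AMO1 and 2.02 in L363-CFZr, TRIB3 by 1.49 and 3.09 and ASNS by 0.91 and 2.33, while ATF4 was at −0.22 (adjusted p = 0.11) and 0.90 (0.0011). They also rose in AMO1 at 6 h with other compounds, 3 of 4 with HFG (median 0.88), NCP22 (median 0.59) and halofuginol (median 0.43) and 4 of 4 with CFZ (median 1.16), beside 3 of 4 with NCP26 (median 1.2). NCP26 against NCP22 there gave DDIT3 and TRIB3 higher, by 1.60 (adjusted p = 4.4e-07) and 0.63 (0.00025), ATF4 lower, at −0.36 (0.015), and ASNS at −0.07 (0.55). In L363-CFZr at 6 h NCP22 called 0 of 4 and halofuginol lowered 3.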

How the data were processed

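Poly(A) RNA-seq libraries of AMO1 and L363-CFZr cells, 3 per group, were quantified by the authors with kallisto (k-mer length 31, version not given in the sources used here) against a GRCh38 transcriptome, while the submitters' processing notes list hg19. The deposited table holds whole-number counts of 20167 genes in 66 libraries. Groups were taken from the sample titles. Genes were filtered (minimum count 10, minimum total 15), scaled by TMM and tested with edgeR 4.0.16 in R 4.3.3 in the libraries of each comparison, with adjustment over all tested genes. Alternatives were DESeq2 1.42.0 (size factors, Wald test), no filter, a replicate block, a GC offset (lowess span 0.3), all groups of a line in one fit, a set term (the 3 runs of sample numbers), and leaving out each library. Deviations of same-numbered libraries correlated above 0.1 in all pairs in 0 of 34 comparisons, so numbers were not used as pairs. No 2 libraries held identical counts, and the 66 replicate pairs differed by 1.30 to 34.4 times the sampling noise (chi-square per degree of freedom). The fits were tested on simulated data. Positions are from GENCODE on GRCh38, figures from Python 3.11.15 and matplotlib 3.10.9.

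The members and gene lists were chosen with earlier results of these data known. Every member was named in every comparison; other genes were named by how often they were called against DMSO, at most 3 per role, and some genes that this rule or the pattern comparison gave are not reported here. Intervals cover counting error and spread between libraries only.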

Additional observations from a re-analysis of the deposited data

Results flagged for a closer look

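The response to a compound differed between L363-CFZr and AMO1 by a test of the difference itself (edgeR's quasi-likelihood test of the interaction, adjusted over all genes) in 13 of 40 cases. Of all genes, 2.71% and 5.41% were called with NCP26 at 6 h and 24 h and 20.7% and 16.9% with HFG. The DMSO libraries of the lines are in different sets at each time. Leaving out single libraries ended the calls of MTOR, of SESN3, of RRAGC with NCP26 and of FLCN with NCP26 at 24 h. With NCP26 the differences, as log2 values of L363-CFZr minus AMO1, were 1.91 for EIF4EBP1, −0.75 for RRAGC and −1.01 for FLCN at 6 h and 1.61 for EIF4EBP1 and −0.79 for FLCN at 24 h. With HFG they were 1.85 for EIF4EBP1, −0.82 for RRAGC, −1.30 for FLCN and −0.32 for MTOR at 6 h and −1.07 for DEPTOR, 0.84 for RRAGD, −1.54 for FNIP1 and −1.32 for SESN3 at 24 h.

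In 4 further cases all treated libraries lay on one side of DMSO in one setting and on the other side in another, and these differences were not tested. The share of all genes that did so was not counted. RRAGC with CFZ in AMO1 changed by −0.48 more at 24 h than at 6 h. FLCN with halofuginol at 6 h differed by −0.30 between L363-CFZr and AMO1. SESN3 with halofuginol in L363-CFZr differed by −1.26 between 24 h and 6 h, where DMSO replicate 2 at 24 h, which stood apart, had the highest SESN3. TSC1 with HFG in AMO1 differed by −0.61 between 24 h and 6 h.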

How the results depend on the processing

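Of the 45 calls against DMSO, 30 held with each library left out and 24 of these under all 7 other settings too. In AMO1 at 6 h the 14 calls became 9 with DESeq2's Wald test, and 9 to 13 when replicates with one number were left out. In L363-CFZr at 6 h the 10 calls became 5 with the GC offset, 5 with all groups in one fit and 3 with the set term, which rests on 1 NCP22 library, and 6 to 12 with replicates left out. At 24 h the 3 calls became 0 to 5, and the 13 differences between lines 4 to 11. With a replicate block, although the numbers did not pair the libraries, the 3 calls of L363-CFZr at 24 h became 1, and over all comparisons 9 of 124 calls were lost. Of the same 124, the set term ended 32 and turned 1 more, all groups in one fit ended 26, DESeq2's Wald test 22, the GC offset 18, no filter 2 and DESeq2's size factors none. In AMO1 at 24 h the 18 calls were 13 with the set term and 17 to 19 under the other settings. The sign turned for EIF4EBP1 with HFG at 6 h in AMO1 under the GC offset (0.25, adjusted p = 0.019) and for MTOR with NCP26 at 24 h in AMO1 under the set term (−0.23, adjusted p = 0.5). The cause was not tested. FNIP1 and SESN3 had as few as 21 and 22 counts in a library, which limits what could be detected in AMO1. The correlations without the 2 libraries that stood apart were chosen after seeing the data.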
